A study of Rattus norvegicus with 6 samples.

Results

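The transcripts examined here are those of 10 genes of the axon: the stathmins Stmn1, Stmn2, Stmn3 and Stmn4, the growth-associated gene Gap43, the neurofilament genes Nefl, Nefm and Nefh, the peripherin gene Prph and the beta-tubulin gene Tubb3. They were taken by name from the 30957 genes of the deposited expression table, and each name matched 1 gene. They were chosen by their known roles and by their counts and differences in these same nerves, so their values and their differences between crushed and intact nerves are given as a description, with no test. Sprague Dawley rats, adult males by the methods, gave 3 crushed sciatic nerves and 3 intact nerves from the other side for RNA-seq. Collection at 4 days postinjury (dpi) is stated in the methods, and the labels give neither age nor time point. The piece taken from each crushed nerve was its proximal stump, and no genetic modification or drug treatment is named for either group. The labels do not say whether crushed and intact nerves of the same number came from the same rat, or that the 3 nerves of a group came from 3 rats, so the spread between nerves may be partly technical.

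Stathmins bind tubulin dimers and destabilise microtubules. Stmn1 is found in many dividing cells, whereas Stmn2 (also called SCG10), Stmn3 and Stmn4 are membrane-anchored and mainly neuronal, and SCG10 is widely stained as a marker of regenerating axons. GAP-43 is a growth cone protein that injured neurons make in quantity. Neurofilaments are the intermediate filaments of axons and are assembled from a light, a medium and a heavy subunit (Nefl, Nefm and Nefh), often with peripherin, and class III beta-tubulin (Tubb3) is a neuronal component of microtubules. The cell bodies of sciatic axons lie in the dorsal root ganglia and the spinal cord, outside the tissue sampled, so axonal RNA in a nerve is a small part of what the neurons hold. In a bulk sample, fewer cells of a type and less RNA per cell cannot be told apart.

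The nerves were sequenced to between 24844371 and 27139360 counts on genes, and 17425 genes had at least 1 count. A floor of 3 counts was used for levels near 0, and it came to between 0.110 and 0.121 CPM (counts relative to library size, after TMM scaling), counting error only. The tissue label was set against defining markers. Of 13 Schwann cell genes found, Cdh19 and Mag had 0 counts in all nerves, and Sox10, S100b and Mbp had at most 3 counts in any nerve. Pmp22 and Ncam1 led this list, at a mean of 10.2 and 15.8 FPKM in intact nerves (counts scaled to gene length and library total). Of 12 macrophage and leukocyte genes, 4 had 0 counts throughout, Ptprc among them, and the summed level of the list was between 2.29 and 3.26 FPKM in intact nerves and between 2.50 and 3.84 FPKM in crushed nerves. Of 10 fibroblast genes, Col1a2, Dcn, Lum and Postn had 0 counts in all nerves, whereas Fn1 was at 130.7 FPKM, Twist1 at 46.2 FPKM and Pdgfra at 7.11 FPKM in intact nerves. All 15 proliferation genes passed the expression filter, and their summed level was between 1351 and 1364 FPKM in intact and between 1353 and 1361 FPKM in crushed nerves. The part of this composition in the results below was not tested.

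Of the 10 genes, Stmn1 and Nefh were the 2 that were counted in quantity. Both passed the expression filter of edgeR, and the other 8 did not, with at most 9 counts in any nerve. Gap43 and Nefm had 0 counts in all 6 nerves, which allows at most 3 counts per nerve. Stmn2 and Tubb3 were seen at a few counts, mainly in intact nerves, and Stmn3, Stmn4, Nefl and Prph at 1 to 3 counts in scattered nerves.

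**Figure D1:**
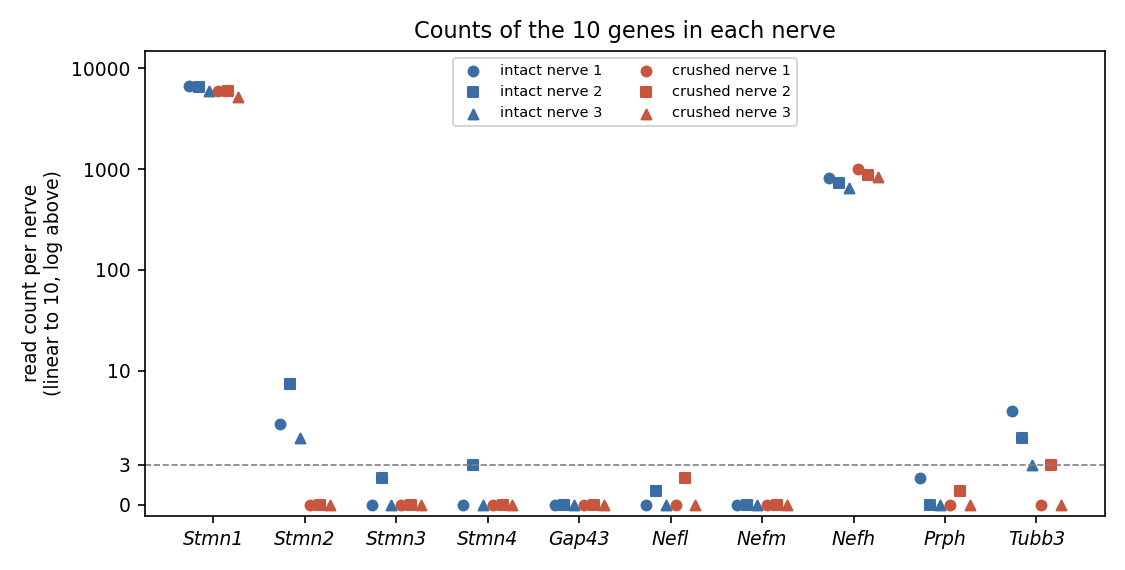
Read counts (vertical axis, linear up to 10 and logarithmic above) of the 10 genes in each nerve, intact in blue and crushed in red, with a dashed line at 3 counts. Stmn1 lies between 5205 and 6713 counts and Nefh between 647 and 1002, while no other gene exceeds 9 counts.

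Promoter sequences were set beside the levels, since Stmn1 was abundant while most of the other genes were near 0. They were read from RefSeq (GRCr8 build, strand of the gene), where 4 of the 10 genes had an entry, Stmn1, Stmn3, Prph and Tubb3. The 250 bases before the annotated start are printed 5′ to 3′ for Stmn1, as the abundant gene, and for Tubb3 and Prph, as 2 that were near 0. Capitals mark matches to any of 6 motifs on either strand, which are the TATA box TATAAA, the CCAAT box CCAAT, the GC box GGGCGG, the E-box CACGTG, the E2F-type site TTTGGCGC and TTCAGCACC, a part of the site bound by the neuronal repressor REST. The motifs were picked after the sequences had been seen.

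Stmn1 (chr5:151964929-151965178, plus strand): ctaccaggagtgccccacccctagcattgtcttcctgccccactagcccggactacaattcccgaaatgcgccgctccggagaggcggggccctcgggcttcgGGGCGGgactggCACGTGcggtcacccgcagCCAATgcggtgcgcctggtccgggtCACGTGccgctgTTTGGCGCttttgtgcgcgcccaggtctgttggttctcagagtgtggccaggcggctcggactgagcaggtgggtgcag
Tubb3 (chr19:68365437-68365686, plus strand): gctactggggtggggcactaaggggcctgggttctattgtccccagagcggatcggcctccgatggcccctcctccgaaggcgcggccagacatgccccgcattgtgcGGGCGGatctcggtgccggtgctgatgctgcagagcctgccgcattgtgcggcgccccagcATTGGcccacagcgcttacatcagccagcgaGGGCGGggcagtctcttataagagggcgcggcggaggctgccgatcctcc
Prph (chr7:132097039-132097288, plus strand): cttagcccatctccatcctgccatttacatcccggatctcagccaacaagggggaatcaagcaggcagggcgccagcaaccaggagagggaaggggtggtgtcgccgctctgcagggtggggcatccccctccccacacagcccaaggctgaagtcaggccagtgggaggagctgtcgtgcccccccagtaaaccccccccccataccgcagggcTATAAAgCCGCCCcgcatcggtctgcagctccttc

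The Stmn1 window held CACGTG at 135 and at 91 bases before the start, CCAAT at 116, GGGCGG at 147 and TTTGGCGC at 79. Among 33469 promoter windows of the same length, 5.59% held CACGTG, 34.0% CCAAT, 30.5% GGGCGG and 0.412% TTTGGCGC. The Prph window held TATAAA at 35 bases before the start, a motif in 12.9% of windows, and a GC box on the other strand. In the Tubb3 window there were 2 GC boxes and a CCAAT box on the other strand. TTCAGCACC, present in 0.305% of windows, was in none of the 4, which says only that these letters are not in these windows. Stmn1 and Tubb3 had nearly the same base composition, 67.6% and 68.0% GC with 22 and 21 CG pairs, against a median of 51.2% and 5 pairs over all windows. The Prph window had 64.4% GC with 9 CG pairs. That of Stmn3, not printed, had 59.2% GC with 4 pairs, and a GC box on the other strand 13 bases before the start. A match is a description and not a binding site.

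Among the stathmins, Stmn1 accounted for between 99.8% and 100% of the counts in each nerve. Stmn1 lies on chromosome 5 from 152680407 to 152686806 (Rnor_6.0), with no other gene of the table overlapping it. Its reads numbered 6713, 6556 and 5977 in intact nerves 1, 2 and 3, and 6023, 6039 and 5205 in the crushed ones. Per length and depth this was 119.3, 112.2 and 109.3 FPKM in the intact nerves and 100.8, 101.5 and 94.9 FPKM in the crushed nerves. Every crushed nerve lay below every intact nerve. By its mean FPKM Stmn1 ranked 764 of the 17425 genes with a count, and in intact nerves it lay within the range of the 15 proliferation genes, whose highest were Top2a, a DNA topoisomerase (163.5 FPKM), and Mki67 (158.0 FPKM).

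The mean level of Stmn1 was 113.6 ± 5.17 FPKM in intact and 99.1 ± 3.60 FPKM in crushed nerves (SD, n = 3 nerves each). On normalized counts the difference was a log2 fold change of -0.21 (standard error, SE, 0.0473), a change of -13.8%. Of all genes tested, 17.3% had a larger absolute log2 fold change. The difference of Stmn1 was well short of the limit of 1 on the log2 scale that the methods set for a differentially expressed gene. Over the 12 other settings the log2 fold change of Stmn1 stayed between -0.24 and -0.17.

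Nefh stood nearly alone among the intermediate filament genes of axons. It encodes the heavy neurofilament subunit, lies on chromosome 14 from 85181572 to 85191557, and overlaps no other gene of the table. Reads on Nefh numbered 818, 736 and 647 in intact nerves 1, 2 and 3, and 1002, 884 and 838 in the crushed ones. In FPKM these were 8.33, 7.22 and 6.78 in the intact and 9.61, 8.51 and 8.75 in the crushed nerves. No crushed nerve was as low as an intact nerve, although intact nerve 1 came close to crushed nerve 2. The subunits it assembles with were not seen at a comparable level. Nefl, the light subunit, had 1 count in intact nerve 2, 2 in crushed nerve 2 and 0 in the other nerves, and Nefm, the medium subunit, had 0 in all. Prph had 2 counts in intact nerve 1, 1 in crushed nerve 2 and 0 elsewhere. Nefh thus held between 99.7% and 100% of the counts of these 4 genes in each nerve, and its mean FPKM was at least 241-fold above the level of 3 counts for Nefl and at least 124-fold above that for Prph. All of these neurofilament counts are small beside Vim, the vimentin gene of mesenchymal cells, whose mean FPKM was 147 times that of Nefh.

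The mean level of Nefh was 7.44 ± 0.800 FPKM in intact and 8.96 ± 0.577 FPKM in crushed nerves (SD, n = 3 nerves each). This was a log2 fold change of 0.25 (SE 0.0842), 19.0% more in crushed nerves, and 13.8% of the genes tested had a larger absolute value. Without intact nerve 1 it was 0.35, and without intact nerve 3 it was 0.19. Stmn1 and Nefh therefore differed in opposite directions. The ratio of their FPKM was 14.3, 15.6 and 16.1 in intact nerves 1, 2 and 3 and 10.5, 11.9 and 10.8 in the crushed ones. That it separates the groups follows from the 2 differences and is not a further result.

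**Figure D2:**
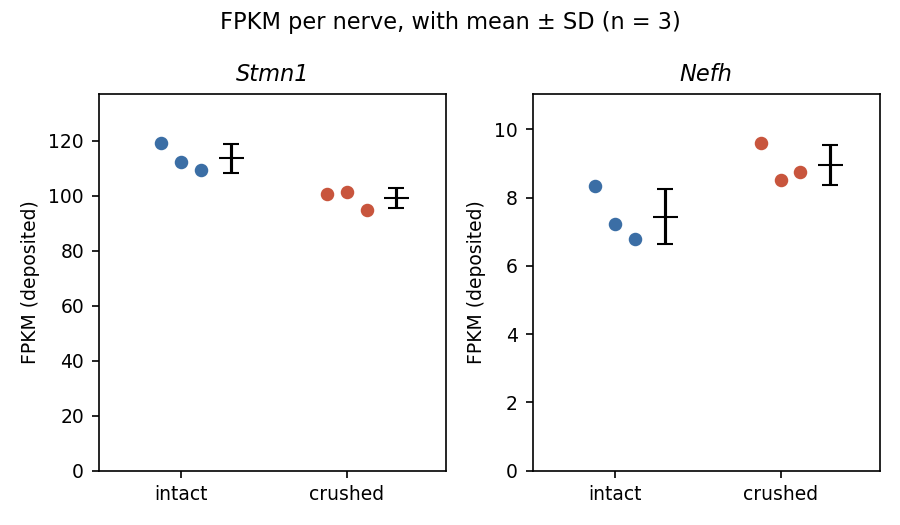
Deposited FPKM of Stmn1 and Nefh in each nerve (points; vertical axes from 0), with the mean and SD of 3 nerves per group in black. Stmn1 is 113.6 in intact and 99.1 in crushed nerves, Nefh 7.44 and 8.96, and in neither gene do the groups overlap.

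Of the 10 genes, the 2 tested in the fit across all genes can be set against its background. Neither passed the limits of the methods (over 1 on the log2 scale in size, with an unadjusted p under 0.001), as 0.282% of the 12393 genes tested did. With an adjusted p under 0.05 and no limit on the fold, 3.12% of the genes tested were called, 1.47% higher and 1.65% lower in crushed nerves. Groups whose normalized CPM did not overlap were found for 23.0% of the genes tested, 10.8% higher and 12.2% lower in crushed nerves, so the absence of overlap in Stmn1 and Nefh is common in these data. Because this contrast was known when the genes were put together, nothing further is read from these counts.

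**Figure D3:**
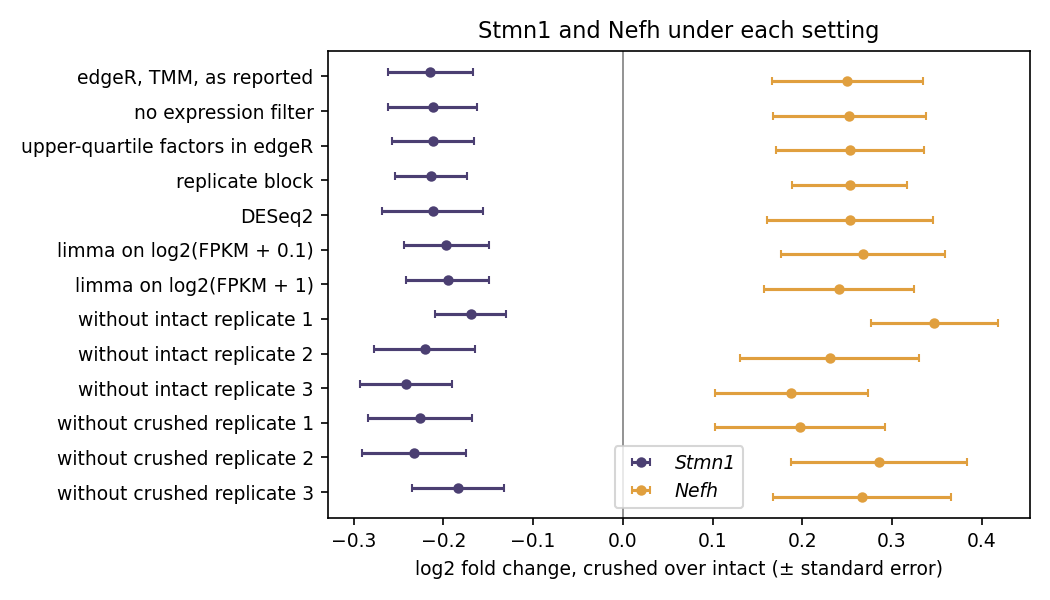
Log2 fold change of Stmn1 and Nefh, crushed over intact (horizontal axis), with its standard error, in the reported fit and in 12 other settings (vertical axis). Stmn1 stays between -0.24 and -0.17 and Nefh between 0.19 and 0.35.

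Stmn2, the gene of SCG10, had the most counts of the 8 low genes. It lies on chromosome 2 from 95424251 to 95472115. The intact nerves 1, 2 and 3 had 6, 9 and 5 counts, and each crushed nerve had 0. In FPKM the intact nerves were at 0.114, 0.164 and 0.0976, so that Stmn1 was 907 times as abundant per length in the same nerves. Set against 3 counts in each crushed nerve, the observed mean of Stmn2 in intact nerves was 2.29-fold higher. This leaves out the counting error of the few intact counts, so it is not a strict lower bound. A limit of 20 counts, which is the intact total of Stmn2 itself, was then applied to all genes in the table. At that limit Stmn2 was the 1 gene with 0 counts in all crushed nerves, and 1 gene had the reverse. Because Stmn2 set the limit, this number does not measure how rare such a pattern is. Over the 6 nerves together, 607 genes had 15 to 25 counts. Stmn2 was chosen with its counts known. The gene did not pass the expression filter.

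Tubb3 had fewer counts, with 7, 5 and 3 in intact nerves 1, 2 and 3, and 0, 3 and 0 in the crushed ones. The groups meet at 3 counts. Of all counts on the 8 beta-tubulin genes of the table, Tubb3 held at most 0.00870% in any nerve. The general beta-tubulin Tubb5 had a mean of 614.7 FPKM in intact nerves, 5656 times that of Tubb3. Closely related tubulin genes can share reads, and how the counting treated such reads is not stated, so a few counts on Tubb3 are uncertain.

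Stmn3 had 2 counts and Stmn4 had 3, all of them in intact nerve 2. Gap43, on chromosome 11 from 58624198 to 58717914, had none in any nerve. Both groups were thus at or under 3 counts for Stmn3, Stmn4, Gap43, Nefl, Nefm and Prph, and no difference between crushed and intact nerves was detectable for these 6 genes at this depth. Over the 8 genes under the filter together, intact nerves 1, 2 and 3 held 15, 20 and 8 counts and crushed nerves 1, 2 and 3 held 0, 6 and 0. Crushed nerve 2 was the only crushed nerve in which any of these 8 was counted. Stmn2 contributed 20 of the 43 intact counts, and without it the sums were 9, 11 and 3 in intact nerves and 0, 6 and 0 in crushed nerves, so that the groups overlapped. These sums came to at most 0.753 CPM before TMM scaling.

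In the order of mean FPKM, intact nerves ran from Stmn1 (113.6) and Nefh (7.44) to Stmn2 (0.125), Tubb3 (0.109), Stmn4 (0.0267), Stmn3 (0.0160), Prph (0.0149) and Nefl (0.0037), with Gap43 and Nefm at 0. Stmn1 and Nefh, and Nefh and Stmn2, were apart in every nerve, whereas Stmn2 and Tubb3, and all neighbours below them, overlapped between nerves. In crushed nerves the order after Stmn1 (99.1) and Nefh (8.96) was Tubb3 (0.0207), Nefl (0.0073) and Prph (0.0070), with the other 5 at 0. None of these last 3 could be told apart in the crushed nerves, since a level of 3 counts corresponds to between 0.0326 and 0.0689 FPKM for them.

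**Figure D4:**
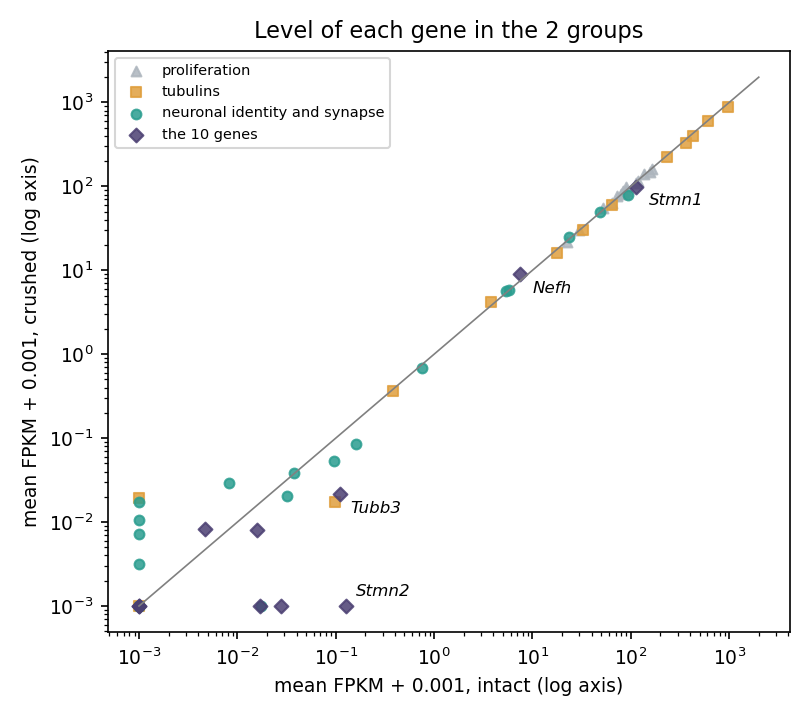
Mean FPKM of each gene in crushed (vertical) against intact nerves (horizontal), both on log axes with 0.001 added, for the 10 genes, the neuronal list, the tubulins and the proliferation genes. Stmn1 and Nefh lie near the diagonal, while Stmn2 (0.125 FPKM in intact and 0 in crushed nerves) and Tubb3 (0.109 and 0.0207) lie below it.

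The other genes of the neuron were mostly as low as these. Of 23 neuronal identity, synaptic and transmitter genes found, 17 did not pass the filter and 7 had 0 counts in all nerves, among them the neuronal nuclear marker Rbfox3, the synaptic vesicle genes Syt1 and Syp, the peptide transmitter genes Calca and Tac1, and Chat, which makes acetylcholine. The 17 low genes together were counted 18, 18 and 30 times in intact nerves 1, 2 and 3, and 8, 25 and 23 times in the crushed ones. The groups overlapped. Of the 6 that were tested none was called, and their median was 0.01 on the log2 scale. Besides Thy1 and Uchl1 these were Eno2, Isl1, Elavl2 and Avil. In intact and crushed nerves Eno2 was at 23.7 and 24.9 FPKM and Isl1 at 5.72 and 5.85 FPKM. Elavl2 was at 5.34 and 5.66 FPKM and Avil at 0.757 and 0.685 FPKM. Thy1, a surface glycoprotein also of fibroblasts, had a mean of 93.0 FPKM in intact and 80.0 FPKM in crushed nerves (log2 fold change -0.23, adjusted p = 0.0552, edgeR). Uchl1, a ubiquitin hydrolase abundant in neurons, was at 49.0 and 49.6 FPKM, with a log2 fold change of 0.00083 (adjusted p = 0.997, edgeR).

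The gene Rest, whose product silences many neuronal genes outside neurons, was counted in every nerve, between 1545 and 1746 times, with a log2 fold change of -0.13 (adjusted p = 0.265, edgeR). Of the 10 genes of the REST repressor complex found, 9 were tested and none was called, with a median log2 fold change of 0.03. Its histone methyltransferase gene Ehmt2 was at 47.7 and 51.3 FPKM in intact and crushed nerves (log2 fold change 0.09, adjusted p = 0.341, edgeR), and the deacetylase gene Hdac2 at 71.5 and 71.0 FPKM (adjusted p = 0.791).

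The list of regeneration-associated genes, which injured neurons are known to induce, contained 1 gene that rose and 1 that fell. Of 27 genes found, 18 were tested, 7 of them above 0, and their median was -0.10 on the log2 scale, where that of all genes tested was -0.0017. Of all genes tested, 1.47% were called higher and 1.65% lower in crushed nerves. Stat3, a transcription factor of cytokine signalling, was counted 5500, 5570 and 5081 times in intact nerves 1, 2 and 3, and 7597, 7368 and 6732 times in the crushed ones. The crushed nerves were all higher, and Stat3 rose by 0.37 on the log2 scale (SE 0.0395, adjusted p = 0.000421, edgeR). Lgals1, which encodes galectin-1, fell, from a mean of 1435 to 1089 FPKM, a log2 fold change of -0.42 (SE 0.0579, adjusted p = 0.00248, edgeR). Neither limma fit on FPKM called Lgals1. Sprr1a, Sox11, Gal, Npy and Vip, which are among the strongest of these genes in injured sensory neurons, had at most 16 counts in any nerve. Gal, Npy and Vip had 0 in all. Other genes of this list were counted in quantity in intact and crushed nerves. They included Tnfrsf12a (250.6 and 237.7 FPKM), Nrn1 (83.1 and 68.9 FPKM), Jun (47.0 and 41.2 FPKM) and Marcks (31.4 and 33.8 FPKM). Atf3, an early injury factor, stood out for its spread, counted 168, 159 and 183 times on the intact side and 198, 46 and 33 times in crushed nerves 1, 2 and 3. Crushed nerve 1 was as high as the intact nerves and the other two were low, and the log2 fold change of Atf3 was -0.95 (SE 0.454, adjusted p = 0.341, edgeR). Without crushed nerve 1 it was -2.14 (SE 0.184, adjusted p = 0.000311, edgeR), and over the other 11 alternatives it ran from -1.19 to -0.56, none of them called, so the value rests on that nerve.

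The general tubulins were abundant, and 1 gene of the microtubule-associated proteins and motors fell. Of 13 tubulin genes found, 10 were tested, 1 was above 0, and none was called, with a median log2 fold change of -0.11. Tuba1b, a general alpha-tubulin, led at 963 and 893 FPKM in intact and crushed nerves (log2 fold change -0.13, adjusted p = 0.200, edgeR), and for Tubb5 the log2 fold change was -0.06 (adjusted p = 0.483). Of 21 microtubule-associated, collapsin response mediator and motor genes, 13 were tested, with a median of -0.12 on the log2 scale. Against 3.12% of all genes tested, 1 of these 13 was called. This was Map1a, a microtubule-associated protein, which fell from 8.81 to 7.30 FPKM, a log2 fold change of -0.29 (SE 0.0625, adjusted p = 0.0330, edgeR). Without intact nerve 2 or any 1 crushed nerve Map1a was no longer called, with an edgeR adjusted p of up to 0.134, and neither limma fit called it. Dpysl4, Dpysl5, Crmp1 and Kif1a, all mainly neuronal, had 0 counts in all nerves, as did the neuronal filament gene Ina. Other genes of the microtubule list known from neurons were counted in quantity in intact and crushed nerves. Among them were Map1b (7.57 and 6.67 FPKM), Map2 (6.91 and 6.31 FPKM), Map6 (11.5 and 10.3 FPKM) and Dpysl3 (90.5 and 92.1 FPKM). The other intermediate filaments were led by Vim (1229 and 1187 FPKM) and Lmna (169.8 and 163.5 FPKM), and none of the 8 tested was called, with a median log2 fold change of -0.10 (adjusted p of 0.371 and 0.324 for these 2, edgeR). Of the 15 proliferation genes none was called, with a median log2 fold change of -0.02.

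**Figure D5:**
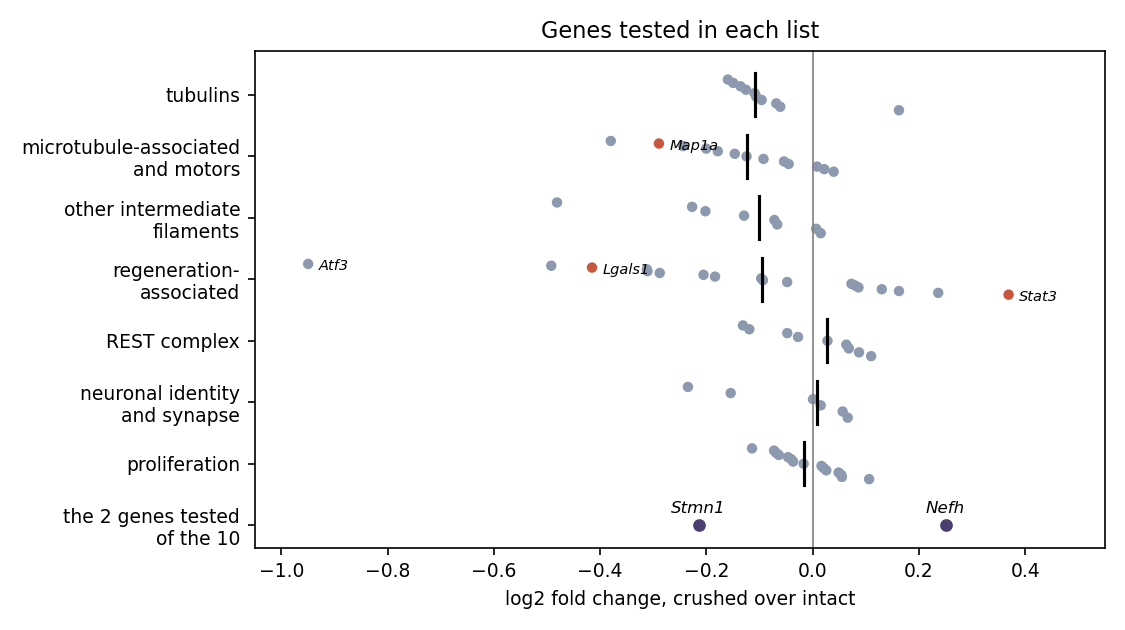
Log2 fold change, crushed over intact (horizontal axis), of every gene tested in 7 lists (vertical axis), with the list's median as a black bar and genes with an adjusted p under 0.05 in red. Stmn1 (-0.21) and Nefh (0.25) are shown in the bottom line, and Stat3 (0.37), Lgals1 (-0.42) and Map1a (-0.29) are the 3 red points.

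Genes of the other cell types differed too, and their part in the values of Stmn1 and Nefh was not tested. On the log2 scale Fn1, the fibronectin gene, fell by 0.59 (adjusted p = 3.52e-05, edgeR), Col1a1 by 0.69 (adjusted p = 0.000662) and Pdgfrb, a pericyte receptor, by 0.77 (adjusted p = 0.00106). The lists were chosen with earlier results of these data known, and 1.65% of all genes tested were called lower. The summed level of the fibroblast list was between 183 and 199 FPKM in intact and between 141 and 145 FPKM in crushed nerves. Of its 6 genes tested 3 were called lower, with a median log2 fold change of -0.38. For the Schwann cell list the sums were between 33.8 and 34.4 FPKM and between 30.4 and 31.6 FPKM, with 2 of 6 called lower, Erbb3 (log2 fold change -0.59, adjusted p = 0.0222, edgeR) and Ncam1 (-0.24, adjusted p = 0.0438), and a median of -0.22. None of 4 endothelial, 3 macrophage and 1 skeletal muscle genes tested was called. That muscle gene, Tnnt3, was counted 7, 8 and 12 times in intact nerves 1, 2 and 3, and 17, 26 and 15 times in the crushed ones, all of them higher (log2 fold change 1.03, SE 0.350, adjusted p = 0.166, edgeR). Of the adipocyte list Pparg was called lower (log2 fold change -0.57, adjusted p = 0.0491, edgeR). The calls of Erbb3, Ncam1 and Pparg were each lost in both limma fits, without any 1 crushed nerve and without intact nerve 1, with an edgeR adjusted p of up to 0.108 for Erbb3, 0.193 for Ncam1 and 0.181 for Pparg. The smooth muscle and pericyte list, to which Pdgfrb belongs, summed to between 17.7 and 20.2 FPKM in intact nerves. In crushed nerves its sum was between 15.6 and 16.8 FPKM, and most of this level was Tagln in both groups. Of the same list Rgs5 had 0 counts in all nerves, Acta2 at most 3 in any nerve and Cnn1 at most 5. The most abundant endothelial genes were Flt1 (1.68 and 1.87 FPKM) and Tek (0.778 and 0.497 FPKM), and the most abundant macrophage genes Cd14 (between 49 and 84 counts per nerve) and Cd68 (between 29 and 52).

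Over the 6 nerves, the genes whose log2 CPM followed Stmn1 most closely were Fam129b (Pearson r = 0.993), Nt5dc2 (r = 0.992) and Mxra8 (r = 0.991). The 6 points share the difference between the groups, and the correlations are given as a description.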

How the data were processed

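RNA-seq of 3 crushed and 3 intact rat sciatic nerves was analysed from the table the authors deposited, with raw read counts per Ensembl gene and FPKM values made by the authors from those counts. HISAT2, StringTie 1.3.0 and the Rnor_6.0 build are named per the labels, without their roles, and the counting rule is not given in the sources used here. The methods describe TRIzol and digestion with RNase R, which removes linear RNA, and the labels a column kit without it, and they differ on the side crushed. Sample titles gave each column its nerve, and 0 value columns were left over. The 10 genes and all gene lists were chosen with earlier results of these data known. Of the listed symbols 7 matched no gene and were not analysed here, and Tuba1c, Klf7 and Rcor1 matched 2 genes each.

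Counts were fitted over all 12393 genes past the expression filter with edgeR 4.0.16 (TMM factors, quasi-likelihood test, no replicate block, R 4.3.3), with Benjamini-Hochberg adjustment over all of them. Standard errors came from the test statistic. Replicates of a group differed by more than sampling noise (chi-square of 3.27 to 11.8 per degree of freedom over 6 pairs). Named were the 10 genes, up to 4 called genes per list or otherwise its 2 most abundant, the listed genes at 0 and the 3 genes most like the most abundant of the 10. Others that carry a count were named after their values were seen. Alternatives were DESeq2 1.42.0, upper-quartile factors, no filter (at least 1 count), the replicate block, limma 3.58.1 on log2(FPKM + 0.1) and log2(FPKM + 1), and each nerve left out. Floors of 3 counts cover counting error only. RefSeq promoters are of the GRCr8 build.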

Additional observations from a re-analysis of the deposited data

How the results depend on the processing

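The log2 fold changes of Stmn1 (-0.24 to -0.17) and Nefh (0.19 to 0.35) kept their direction and moved by less than the spread between nerves in all 12 alternatives. The fold of Stmn2 over 3 counts per crushed nerve stayed between 1.94 and 2.55. Calls on the 10 genes are not given for these settings, because the genes were chosen with this contrast known. The ratio of Stmn1 to Nefh was 15.3 in intact and 11.1 in crushed nerves in FPKM, and 8.75 and 6.34 in normalized CPM, which is not scaled by gene length. The 35 genes past the limits (27 higher, 8 lower) fell to 14, 14 of them higher and 0 lower, for limma on log2(FPKM + 1). The number lower was 5 with the replicate block (paired analysis), 5 by DESeq2 and 2 by limma on log2(FPKM + 0.1). Without each nerve in turn there were 27 to 35 genes past the limits, 23 to 32 of them higher and 3 to 10 lower. The 387 adjusted calls (182 higher, 205 lower) became 242 with limma on log2(FPKM + 0.1), 86 of them lower. With limma on log2(FPKM + 1) the number was 256, 94 of them lower. By DESeq2 there were 512 adjusted calls (221 higher, 291 lower), and with the replicate block 300 adjusted calls (146 higher, 154 lower). Without each nerve in turn they numbered 179 to 392, 100 to 218 higher and 75 to 174 lower, in fits with fewer samples. The cause of the other shifts was not tested.

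Of the listed genes 1 passed the limits, Col3a1, counted 22, 23 and 21 times on the intact side and 10, 3 and 7 times on the crushed side. The number was 0 for the replicate block, DESeq2 and either limma fit, and 0 to 2 without each nerve in turn. The 2 came without crushed nerve 1, where Atf3 passed as well. Of the 10 listed genes with an adjusted p under 0.05, 4 (Fn1, Stat3, Col1a1 and Pdgfrb) kept the call in all 12 alternatives. With the replicate block Erbb3, Col3a1, Ncam1 and Pparg were not called (adjusted p = 0.0525, 0.0597, 0.0865 and 0.0804, edgeR). After subtracting group means, same-numbered nerves correlated between -0.0148 and 0.0756 over genes. This cannot decide whether the numbers pair the nerves, since technical spread would also keep such correlations low. The reported fit has no block because no source says that the same number means the same rat.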
